A study of Cynodon dactylon with 10 samples.

Results

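In leaves of the lawn and pasture grass Cynodon dactylon (bermudagrass), 72 of 28456 assembled contigs were raised at least 2-fold over unstressed leaves by drought, salt, submergence and heat alike. They were chosen from unscaled RPKM (reads normalised to contig length and library size) as the contigs under 500 RPKM in the control whose rise was at least 1 in every stress. The rise is log2 of the stress mean plus 1 RPKM over the control mean plus 1 RPKM. The 72 make up 0.255% of the 28283 contigs under that control level, and lifting the limit added no contig. Every comparison of a stress with the control was used in this choice, so rises over the control are descriptions with no test. Differences between stresses share their stress values with that choice, and their counts over the 72 are descriptions too.

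Plants meet each of these stresses with responses of its own and with shared ones. Drought and salt both withhold water from cells and act through abscisic acid, heat unfolds proteins and calls up chaperones, and submergence cuts off oxygen and light and involves ethylene. Protective proteins of the late embryogenesis abundant class, chaperones and enzymes that remove reactive oxygen are the textbook products raised by several stresses. The contigs carry assembly identifiers that the files do not pair with gene names, so none of these roles is given to any of the 72, and the leaf origin of the RNA was not checked against marker genes.

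The plants were wild type, 3 weeks old when treatment began, and treated for 7 days. Droughted plants received no water, salt-treated plants received 400 mM NaCl, submerged plants were kept under water, heated plants were kept at 42 °C, and the control had none of these. Each of the 5 groups had 2 libraries of leaf RNA, and the labels do not say whether these came from separate plants, so p-values measure the spread between these libraries alone. Totals ran from 751923 to 795078 RPKM. The depth relative to control replicate 1, estimated from low values, ran from 0.789 in heat replicate 2 to 1.01 in salt replicate 2. Absolute read totals are unknown. In whole leaves, a change in the RNA per cell and a change in the cells present cannot be told apart.

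The 72 contigs ranged widely in abundance in every group. Their control means ran from 0 to 81.7 RPKM with a median of 3.38 RPKM. In the control, 16 of them lay under 1 RPKM, 29 between 1 and 5 RPKM, 16 between 5 and 10 RPKM, 9 between 10 and 50 RPKM and 2 above 50 RPKM. The median of the heat means was 47.9 RPKM, that of the drought means 39.2 RPKM, that of the submergence means 22.7 RPKM and that of the salt means 9.94 RPKM. The highest group mean of any of the 72 was 3298 RPKM in submerged leaves, 1479 RPKM in heated leaves, 1206 RPKM in droughted leaves and 226 RPKM in salt-treated leaves.

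**Figure D1:**
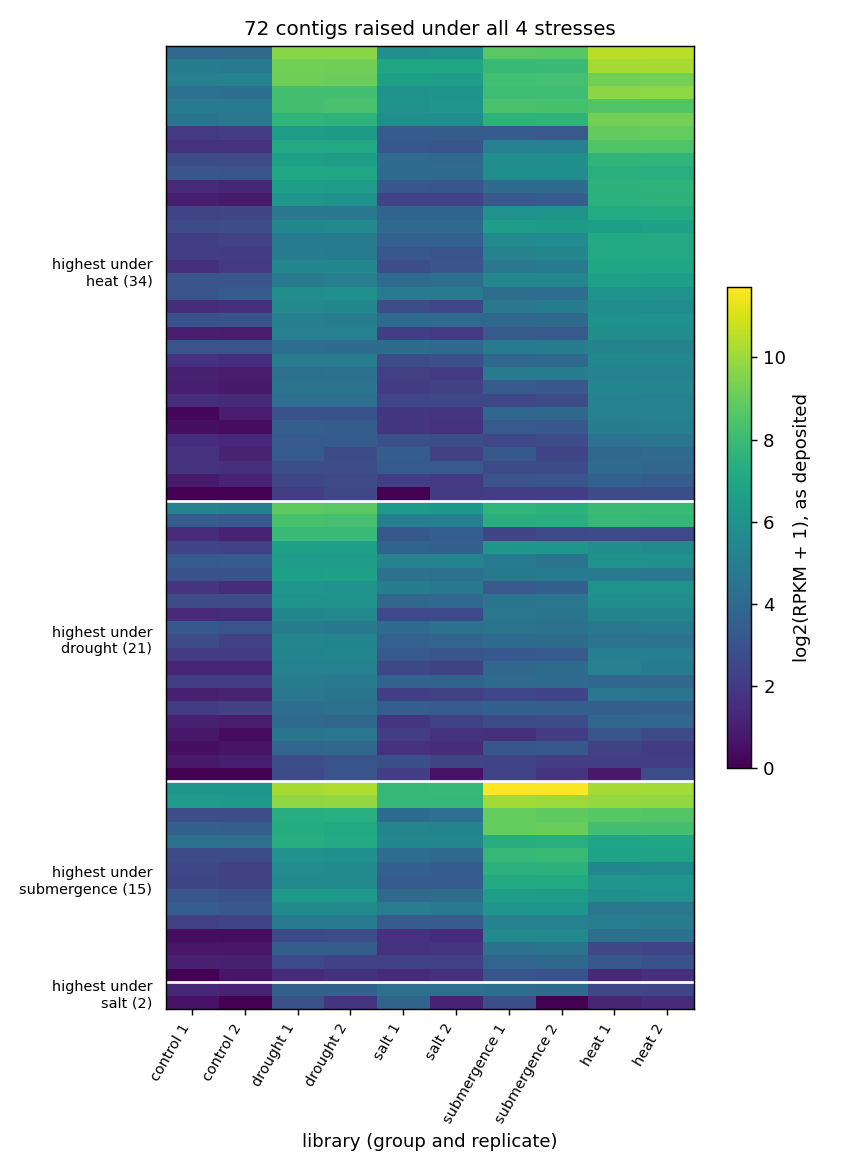
Each row is 1 of the 72 contigs and each column 1 library, coloured by log2(RPKM + 1) as deposited; rows are grouped by the stress with the highest mean and ordered by mean level. The control columns are darkest, the salt columns next, and 34 contigs are highest in heat, 21 in drought, 15 in submergence and 2 in salt.

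Together they held a small part of each library, and that part differed widely between stresses. Their summed share of all RPKM was 1.60% ± 0.00484 in heated leaves, 1.26% ± 0.0180 in submerged leaves, 1.11% ± 0.000497 in droughted leaves, 0.215% ± 0.00109 in salt-treated leaves and 0.0725% ± 0.000980 in unstressed leaves (SD, n = 2 each). No library of one group overlapped with a library of another group in this share. That the mean share was higher in every stress than in the control follows from how the contigs were chosen. The 2 contigs with the highest mean over the stress libraries carried much of the submergence share. Without them, the share was 0.680% ± 0.00189 under submergence, below the 0.835% ± 0.00934 under drought, and it was 1.33% ± 0.000834 under heat (SD, n = 2 each).

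**Figure D2:**
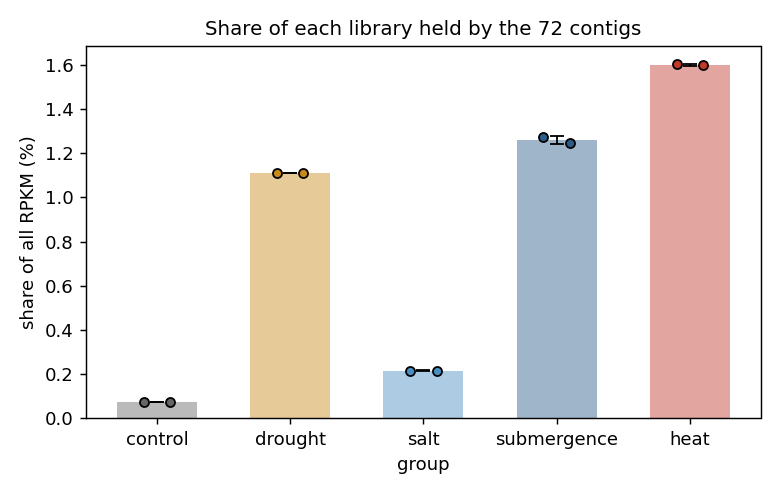
The share of all RPKM held by the 72 contigs, in percent, for each group; bars are means, error bars the SD of 2 libraries, and points the libraries. Heat is highest at 1.60%, and salt, at 0.215%, is the stress nearest to the control at 0.0725%.

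The size of the rise, which chose the contigs, was smallest under salt for most of them. The median rise was 1.29 under salt, with a range from 1.01 to 3.17. It was 2.78 under submergence, from 1.001 to 6.08. It was 3.24 under drought, from 1.13 to 6.61, and 3.51 under heat, from 1.03 to 6.87. The next counts include the 1 RPKM added to both means. A rise of at least 8-fold was reached by 44 contigs in heated leaves, 40 in droughted, 28 in submerged and 2 in salt-treated leaves. On this measure 68 stayed under 4-fold in salt. The shares of all contigs at these 2 limits are not given here, so nothing is read from these counts. The added 1 RPKM makes the rise smaller than the ratio of the RPKM means, most of all for contigs low in the control. One contig went from 0.345 RPKM in the control to 1.925 RPKM under salt, a rise of 1.12. Over the contigs tested, the unscaled values also lay somewhat above the control, with a median of 0.33 for submergence, 0.14 for heat, 0.06 for salt and 0.04 for drought. A rise of at least 1 was seen in 20.1% of contigs for submergence, 15.8% for heat, 7.52% for drought and 1.51% for salt, so salt was the stress that admitted the fewest contigs.

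**Figure D3:**
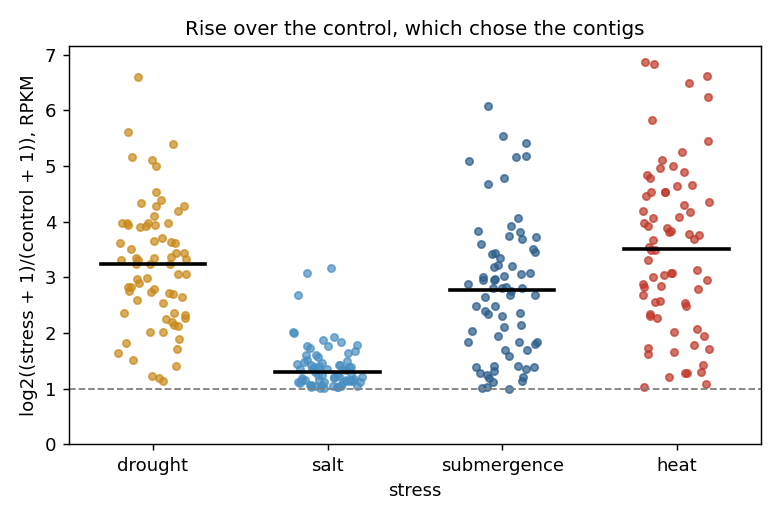
Rise over the control, log2 of (stress + 1) over (control + 1) in RPKM, for the 72 contigs (points) under each stress, with the median as a bar and the limit of 1 that chose them as a dashed line. Salt values lie close to the limit with a median of 1.29, and the other stresses spread up to between 6.08 and 6.87.

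The largest rises belonged to different contigs in different stresses. The contig with the largest rise under heat had 2.98 and 3.36 RPKM in the control libraries, 474 and 497 RPKM under heat, 84.7 and 81.6 RPKM under drought, 9.79 and 10.1 RPKM under salt and 9.77 and 8.55 RPKM under submergence. It was thus far higher in the heat libraries than in any others, and salt and submergence lay close to each other. The contig with the largest rise under drought had 1.85 and 1.22 RPKM in the control, 249 and 243 RPKM under drought and between 4.51 and 10.2 RPKM in the 6 other stress libraries. The contig with the largest rise under submergence had 5.93 and 6.13 RPKM in the control, 489 and 461 RPKM under submergence, 411 and 388 RPKM under heat, 156 and 169 RPKM under drought and 16.8 and 18.8 RPKM under salt. The contig with the largest rise under salt had 2.49 and 1.89 RPKM in the control and 29.5 and 26.1 RPKM under salt. Its submergence libraries were lower than those of salt, at 8.62 and 11.6 RPKM, and its drought and heat libraries were higher, between 61.4 and 68.2 RPKM.

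Around the limit, the contigs inside and outside differed by little. The 3 just inside had a smallest rise of 1.001, 1.01 and 1.02, set by submergence, salt and submergence. The 3 just outside had a smallest rise of 0.988, 0.991 and 0.998, each set by salt. One of the latter averaged 771 RPKM under submergence and 11.5 RPKM in the control, and was left out only because its salt mean was 23.9 RPKM.

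Levels were then compared between the stresses. Scaling used the trimmed mean of the log ratios between libraries, and differences are in log2(scaled RPKM + 1). A contig was called where limma's adjusted p, by the Benjamini-Hochberg method over 26884 contigs tested, was under 0.05 and the difference at least 2-fold. All 72 passed the filter on low values, which the choice of the contigs had made certain. These comparisons use the same stress values that chose the contigs. The limit of 1 was met least often under salt, where most of the 72 lie just above it, so the choice also bears on which stress is lower. The share called over all contigs tested is printed beside the counts as background, and nothing is read from how far a count lies from it. A limma p for a single contig sets the difference against the spread between libraries. For a contig shown as the end of a range, the difference itself picked the contig, so its p is a description too.

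Salt levels were below those of the other stresses for most of the 72. The counts describe values that also chose the contigs. The shares over all contigs tested therefore do not show what the choice alone would give. Of the 72, 55 were lower under salt than under drought and 0 were higher, where 5.92% and 6.89% of all contigs tested were called in those directions. Their median difference was -1.88, against 0.00 over all contigs tested. Of the 72 estimates, 69 were below 0, and at an unadjusted limma p under 0.05 and any size, 2 were higher under salt. Heat exceeded salt for 52 of the 72 and was lower for 1, against 11.2% and 15.4% of all contigs tested, with a median difference of 2.01. Submergence exceeded salt for 38 and was lower for 2, against 14.9% and 16.1%, with a median difference of 1.19. The count of 2 became 1 without salt replicate 2, and also without scaling or with median-ratio scaling.

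Heat and drought were the closest pair. Heat was higher for 17 of the 72 and lower for 9, against 8.11% and 11.8% of all contigs tested, and the median difference was 0.17. The 17 make 23.6% of the 72 and the 9 make 12.5%. Without scaling, the counts were 21 higher and 6 lower, against 10.8% and 9.78% of all contigs tested. The other 46 did not pass, which does not show that their levels were equal. Estimates ran from -5.44 to 2.38. The lowest value is that of the contig with the largest rise under drought, whose 2 heat libraries had 5.46 and 5.07 RPKM against 249 and 243 RPKM under drought (SE 0.13, adjusted p = 1.09e-08). The highest is that of the contig with the largest rise under heat (SE 0.07, adjusted p = 2.73e-08). Both contigs were picked as the ends of the range, so their p-values are descriptions.

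Submergence lay below both drought and heat more often than above them. Against drought, 29 of the 72 were lower under submergence and 10 higher, where 16.4% and 17.2% of all contigs tested were called, and the median difference was -0.91. The 10 make 13.9% of the 72. Heat was higher than submergence for 36 and lower for 8, against 14.7% and 17.6%, with a median difference of 0.92. Estimates for heat against submergence ran from -1.95 to 5.65. The contigs at these ends were picked by their estimates, so the p-value given next is a description. The lowest was that of a contig with 187 and 191 RPKM in the submergence libraries, 43.9 and 46.8 RPKM under heat, 49.7 and 48.6 RPKM under drought, 11.7 and 10.1 RPKM under salt and 4.67 and 3.96 RPKM in the control (SE 0.08, adjusted p = 6.30e-08).

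**Figure D4:**
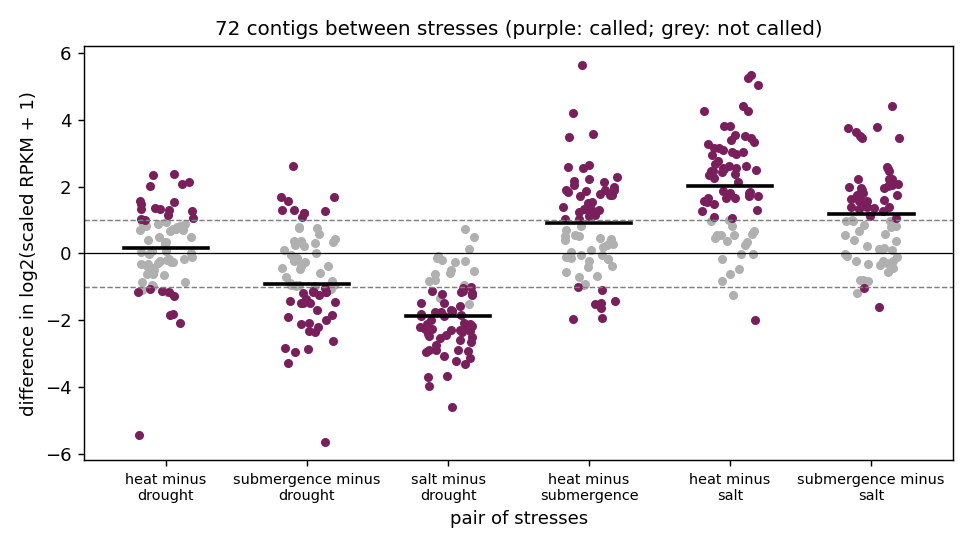
Difference in log2(scaled RPKM + 1) between each pair of stresses for the 72 contigs; purple points were called (adjusted p under 0.05 and at least 2-fold), grey points were not, bars are medians and dashed lines mark a 2-fold difference. Most points of salt against drought lie below 0, with a median of -1.88, while heat against drought is spread on both sides of a median of 0.17.

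By the order of the unscaled means, the 4 stresses fell into 14 different sequences among the 72. The most frequent was heat, drought, submergence and then salt, in 18 contigs. It was followed by drought, heat, submergence and salt in 10, and by heat, submergence, drought and salt in 10. Salt had the lowest stress mean in 56 contigs (77.8%, against 26.2% of all contigs tested) and submergence in 11 (15.3%, against 22.4%). Heat was lowest in 5 (6.94%, against 23.6%) and drought in 0, against 27.8%. Heat had the highest mean in 34 (47.2%, against 29.0% of all contigs tested), drought in 21 (29.2%, against 15.5%), submergence in 15 (20.8%, against 38.3%) and salt in 2 (2.78%, against 17.1%). These shares are descriptions, and neighbours in an order need not differ beyond the spread of their libraries.

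A stricter count took contigs called against each of the other 3 stresses in the same direction. It is a description, because its values also chose the contigs and most of the 72 lie just above the limit under salt. Nothing is read from how far these counts lie from the shares over all contigs tested. Of the 72, 32 were lower under salt than under each other stress (44.4%), against 1.37% of all contigs tested. In these 32, the group means had a median of 15.4 RPKM under salt, 90.2 RPKM under drought, 90.5 RPKM under submergence and 126 RPKM under heat. Heat was above each other stress for 13 (18.1%), against 2.75% of all contigs tested. Their heat means ran from 22.2 to 839 RPKM, with a median of 138 RPKM. Drought was below each other stress for 0, also at an unadjusted limma p and any size, where 0.517% of all contigs tested were called. One contig, with 4.70 and 4.41 RPKM under heat and between 10.9 and 19.3 RPKM in the 6 other stress libraries, was lower under heat than under each other stress, against 3.2% of all contigs tested.

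Submergence stood above each other stress for 5 of the 72 (6.94%), against 10.1% of all contigs tested. Their submergence means ran from 7.28 to 3298 RPKM. One contig, the one with the largest rise under salt, was lower under submergence than under each other stress, against 6.33% of all contigs tested. Drought stood above each other stress for 3 (4.17%), against 1.37%. Beside the contig with the largest rise under drought, these were a contig with 98.8 and 102 RPKM under drought and 18.9 to 27.7 RPKM in the other stress libraries, and one with 22.2 and 23.2 RPKM under drought and 2.02 to 7.38 RPKM elsewhere under stress. The count of 3 became 5 without drought replicate 2, and also with a pseudocount of 0.1 RPKM. Salt stood above each other stress for 0 of the 72, where 2.41% of all contigs tested did; at an unadjusted limma p under 0.05 and any size, it did so for 1.

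The most abundant of the 72 over the stress libraries was comp47653_c0_seq1. It had 69.0 and 70.0 RPKM in the control, 1178 and 1234 RPKM under drought, 222 and 228 RPKM under salt, 3384 and 3212 RPKM under submergence and 1120.4 and 1105 RPKM under heat. No 2 groups overlapped, and drought lay just above heat. By limma, submergence exceeded drought by 1.21 (SE 0.04, adjusted p = 7.35e-09) and heat lay below submergence at -1.48 (SE 0.04, adjusted p = 2.42e-09). Heat differed from drought by -0.27 (SE 0.04, adjusted p = 0.000186), under 2-fold and so not called. Salt lay below drought at -2.42 (SE 0.04, adjusted p = 1.90e-09).

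The contig with the most even level over the stresses was comp58105_c2_seq4. It had 8.35 and 6.98 RPKM in the control, 28.9 and 25.9 RPKM under drought, 16.2 and 20.3 RPKM under salt, 21.96 and 20.02 RPKM under submergence and 25.04 and 27.57 RPKM under heat. Its salt and submergence libraries overlapped, as did those of drought and heat. It was called in 0 of the 6 pairs of stresses, and 4 pairs had an unadjusted p under 0.05 at less than 2-fold, with limma estimates from -0.60 for submergence against drought (SE 0.12, adjusted p = 0.00189) to 0.39 for heat against submergence (SE 0.12, adjusted p = 0.0168). Its subcomponent, the set of contigs whose identifiers differ in the last part alone, holds 16 contigs, and reads may be split among them.

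Besides this contig, 4 others were called in none of the 6 pairs, where 43.8% of all contigs tested were called in none. In 2 of these 4 the libraries of a group differed more than 2-fold. The other 2 differed by at most 0.94 and 0.87 between stresses. One of these had 3.14 and 3.74 RPKM in the control, 17.8 and 19.0 RPKM under drought and 9.46 to 11.2 RPKM in the 6 other stress libraries. At the other end, 2 of the 72 were called in all 6 pairs, where 0.465% of all contigs tested were. One of them had 2.25 ± 0.0707 RPKM in the control (SD, n = 2), 7.97 and 7.76 RPKM under salt, 33.3 and 35.0 RPKM under submergence, 134 and 137 RPKM under drought and 376 and 363 RPKM under heat. Its 5 groups did not overlap and formed a series of steps.

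The 72 contigs came from 65 subcomponents of the assembly. Of the 72, 33 were alone in their subcomponent (45.8%, against 50.8% of all contigs). The subcomponents held 112 further contigs, and 30 of them passed the limit of 1 in 3 stresses, 17 in 2, 27 in 1 and 38 in 0. Of all contigs under 500 RPKM in the control, 2.60% passed it in 3 stresses, 6.99% in 2, 22.1% in 1 and 68.0% in 0. Of the 112, 48 were at least 2-fold above the control under drought and 48 under heat, 42 under submergence and 13 under salt. The shares of all contigs under 500 RPKM in the control were 7.52%, 15.8%, 20.1% and 1.51% in the same order. At least 2-fold below the control were 11 under drought, 22 under heat, 21 under submergence and 0 under salt. The shares of all contigs this far below are not given here, so nothing is read from these counts. Contigs of one subcomponent are not independent, and reads may be split between them. When RPKM was summed over each subcomponent, a sum that mixes contig lengths, 11 of the 32 subcomponents with more than 1 contig passed the limit in every stress. Each sum includes at least 1 of the 72, which were chosen by this limit. The share over all subcomponents is not given here, so nothing is read from this count.

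The following subcomponents were picked after their values were seen. One held 4 of the 72 and 2 further contigs. All 4 were highest under heat, with heat means of 33.8 to 147 RPKM. Limma put heat above drought by 2.03 to 2.36 (SE 0.04 to 0.21, largest adjusted p = 4.90e-05). These values were seen before the pick, so the p is a description. The 4 contigs may share reads and are not separate results. Its 2 further contigs missed the limit under salt alone, with rises of 0.93 and 0.13 there and of 4.80 and 4.34 under heat. In another, with 2 contigs that both belong to the 72, submergence was highest for both. One of them had 226 and 235 RPKM under submergence, 109 and 107 RPKM under heat and 60.1 and 58.8 RPKM under drought. The other had 495 and 526 RPKM, 299 and 304 RPKM and 152 and 138 RPKM in the same order.

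Other subcomponents held contigs that went apart. In one with 2 contigs, both among the 72, one had 448 and 429 RPKM under drought and 258 and 250 RPKM under heat, and the other had 301 and 296 RPKM under drought and 836 and 842 RPKM under heat. Heat against drought was -0.94 for the first (SE 0.05, adjusted p = 1.02e-06), just short of a 2-fold call, and 1.33 for the second (SE 0.03, adjusted p = 8.32e-09). These contigs too were picked after their values were seen, so both p-values are descriptions. The difference between the 2 contigs was not tested. In a second case, 1 of the 72 had 249 and 254 RPKM under submergence and 30.3 and 28.5 RPKM in the control. Its companion contig, which is not among the 72, had 4.33 and 5.36 RPKM in the control, 1765 and 1673 RPKM under drought, 58.0 and 52.3 RPKM under salt, 184 and 173 RPKM under heat, but 4.34 and 8.20 RPKM under submergence. Its rise of 8.20 under drought was above that of any of the 72, and its submergence and control libraries overlapped.

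In another subcomponent the companions went the other way. One of the 72 was listed at 0 in both control libraries and had 3.46 and 4.61 RPKM under drought, 0 and 3.11 RPKM under salt, 3.31 and 3.53 RPKM under submergence and 5.63 and 6.15 RPKM under heat. Of its 7 companions, 6 had 10.6 to 48.2 RPKM in the control and lay below the control under drought, submergence and heat by at least 2-fold. The most abundant of these went from 48.2 and 47.5 RPKM in the control to 10.9 and 7.27 RPKM under drought, 18.8 and 14.1 RPKM under submergence and 0 and 0.13 RPKM under heat. Summed over all 8 contigs, the subcomponent lay at -2.14 under drought and -2.86 under heat relative to the control.

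**Figure D5:**
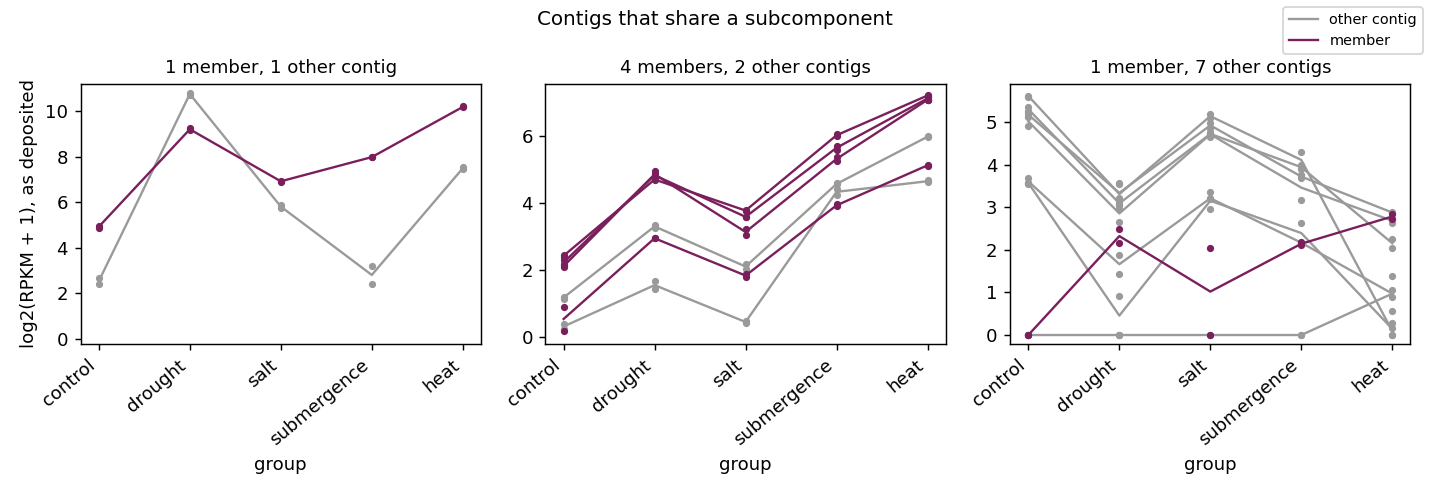
Level in log2(RPKM + 1), as deposited, of the contigs in 3 subcomponents across the 5 groups; points are libraries, lines join group means of the log values, purple lines are contigs among the 72 and grey lines their companions. In the left panel the companion exceeds the member under drought (1765 and 1673 RPKM) but not under submergence, in the middle panel all 6 contigs are highest under heat, and in the right panel 6 companions are highest in the control, at 10.6 to 48.2 RPKM, where the member is listed at 0.

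Replicates of the 72 mostly lay close together, and each of the 4 contigs with a wide gap had one under salt. Over 360 pairs of replicate values, 1 per contig and group, the median gap was 0.08 in log2(RPKM + 1), and 95% lay under 0.38. A gap of at least 2-fold occurred in 7 of the 360, in 4 contigs. Besides salt, 1 gap fell under drought, 1 under submergence and 1 under heat. One had 12.6 and 1.27 RPKM under salt, 6.54 and 2.35 RPKM under drought, 5.98 and 0 RPKM under submergence, and 1.35 and 1.71 RPKM under heat. The 3 companions of this contig also had most of their salt level in replicate 1, at 4.02 and 0 RPKM, 22.4 and 2.71 RPKM, and 6.25 and 0 RPKM. Its place among the 72 rested on replicate 1 of salt and of submergence. The other contigs with a wide gap had 9.85 and 3.87 RPKM, 0 and 3.11 RPKM, and 3.32 and 0.50 RPKM under salt. In each of them 1 salt library carried most of the rise there.

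Contigs that met the limit in 3 stresses and missed it in 1 numbered 736, and salt was the stress missed by 635 of them. These 635 had a median rise of 0.40 under salt, and 61 of them lay below the control there. Their medians under the other stresses, 1.64 for drought, 1.90 for submergence and 2.23 for heat, were lower than the 3.24, 2.78 and 3.51 of the 72, a comparison between lists chosen on these values and given without a test. Submergence was missed by 67, of which 36 lay below the control there and 19 of these by at least 2-fold. Heat was missed by 22 and drought by 12.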

How the data were processed

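Leaf RNA was measured in 10 libraries. The authors deposited RPKM values with 2 decimals, 1 column per library, per the file headers. The submitters' processing notes name, without their roles, HTSeq 0.6.1, DESeq 1.18.0, TopHat2 2.0.12 and Bowtie2 2.2.3. The assembly method was not given in the sources used here.

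Of 28456 contigs, the test took 26884, those that reached 1 RPKM in 2 or more libraries. Values were scaled by the trimmed mean of the log ratios (30% of ratios and 5% of levels left out at each end), taken to log2(RPKM + 1), which understates changes of low contigs, and fitted in limma 3.58.1 (R 4.3.3; variance trend on) with all 10 libraries and the group as the only term, leaving 5 residual degrees of freedom. The fit was also run on simulated data, with changes planted under heat alone and only in contigs above a minimum control level. It does not show how the fit performs for contigs low in the control or for differences near the 2-fold limit. Relative depth was estimated indirectly from contigs low in both libraries. It is the commonest ratio of the value in control replicate 1 to the value in the other library. Tables and figures were made with matplotlib 3.10.9, pandas 2.3.3 and numpy 2.4.6 in Python 3.11.15.

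The 72 contigs and the lists were chosen with earlier results of these data known. At most 2 identifiers are printed: the member with the highest mean over the stress libraries and the one with the most even stress means. Others described include the ends of each comparison and of each group's range, and those said to be picked after seeing their values. The rest are examples from the counted groups or from near the limit, shown with their values known. Alternatives changed the scaling, the pseudocount, the filter or the libraries fitted, added the replicate number as a block, or left out each library in turn. Counting 1 contig per component, or only contigs with replicates within 2-fold, was added after seeing the data.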

Additional observations from a re-analysis of the deposited data

How the results depend on the processing

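Over the alternatives, 313 of 320 recomputed counts stayed within 1.5 times the reported value. The number of contigs that met the limits was the most sensitive to the setting. It was 268 with a pseudocount of 0.1 RPKM, all 72 among them, and 40 when every stress library had to exceed the higher control library at least 2-fold. Scaling left 58, all among the 72. Leaving out libraries gave 70 to 96, and with only replicate 2 or only replicate 1 of every group, 60 of 96 and 56 of 93 contigs were among the 72. The count lower under submergence than under salt was 1 without scaling and with median-ratio scaling, and 1 to 2 with a library left out. The count above each other stress under drought was 5 with a pseudocount of 0.1 RPKM, and 3 to 5 with a library left out. For comp58105_c2_seq4, submergence against salt, at -0.03, was 0.20 without scaling, 0.0093 with median-ratio scaling, and from -0.18 (without salt replicate 1) to 0.13 (without salt replicate 2) with a library left out, 0.04 without submergence replicate 2 among these, and it passed the 2-fold call in none. The cause was not tested.

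With the replicate number as a block, heat against drought gave 17 contigs higher and 9 lower, as without it, and salt against drought 56 lower; the block changed no count by over 1.5 times. The labels do not say whether replicates of the same number were handled together. Across 20155 contigs, the correlation of replicate differences between groups ran from -0.05 to 0.16, the highest for drought and salt. A shared handling of replicates was not tested further. Depth limits the 16 contigs under 1 RPKM in the control most.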

Other observations

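Across the 72 contigs, the levels in different groups followed each other to unequal degrees. Spearman's rho between the group means was 0.942 for control and salt, 0.819 for drought and heat, 0.805 for control and submergence, 0.785 for control and drought and 0.730 for control and heat (n = 72 contigs). The lowest was 0.672, for salt and heat. These values are across contigs, which are not independent replicates and share their libraries, and they come after a choice that tied each stress level to the control level, so they are descriptions.

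One of the 72 had 2.33 and 1.23 RPKM in the control, 9.73 and 5.60 RPKM under drought, 9.85 and 3.87 RPKM under salt and 8.39 and 4.43 RPKM under submergence, so replicate 1 was higher in 4 groups, and 14.2 and 16.0 RPKM under heat. The only other contig of its subcomponent had 20.0 and 21.8 RPKM, 21.8 and 27.9 RPKM, 15.0 and 19.3 RPKM and 26.6 and 30.6 RPKM in the same 4 groups, with replicate 2 higher in each. Whether reads were split unevenly between these contigs was not tested.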
